A study of Mus musculus with 20 samples.

Results

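The genes described here encode the voltage-gated sodium and calcium channels, the hyperpolarisation-activated HCN channels, the potassium channels and their auxiliary subunits. They were chosen by symbol alone (Scn, Cacn, Hcn and Kcn names), which found 136 of the 55487 genes counted, 101 of them pore-forming and 35 auxiliary. RNA was sequenced in 20 libraries of subcerebral projection neurons, the cortical cells that send their axons to brainstem and spinal cord, from postnatal day 1 mice. The libraries form 4 groups of 5: growth cones (the tips of growing axons, tissue labelled brainstem and spinal cord) and somata (cell bodies, tissue labelled cortex), each from wild-type mice (WT) and from mice labelled null for the transcription factor gene Bcl11b (KO). Values marked KO below are of libraries so labelled. The labels used here name no strain, Cre line, reporter, sex or litter, and nothing says that the 5 libraries of a group came from separate animals, so p-values measure only the spread between these libraries. Growth cone libraries were made from 0.19 to 3.1 ng of RNA and soma libraries from 1.8 to 3.1 ng, per the labels' protocols.

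Voltage-gated channels open when the membrane potential changes and let sodium, calcium or potassium through, which shapes the firing of a neuron and, through calcium, the movement of its growth cone. The pore is made by large alpha subunits. Smaller auxiliary subunits set how fast the channel opens and closes, how much of it reaches the surface and where it sits. Newborn projection neurons are still extending their axons.

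All 11 markers of subcerebral projection neurons had counts in every group, with a summed level of 1138 to 1486 CPM, counts scaled to the library total, in growth cones and 2207 to 2981 CPM in somata. Bcl11b itself stood at 72.4, 116, 122, 98.5 and 96.9 CPM in WT growth cones and at 69.9, 72.2, 139, 89.4 and 141 CPM in growth cones labelled KO, which overlapped. It stood at 583, 806, 789, 789 and 537 CPM in WT somata and at 1177, 1143, 1129, 1080.0 and 1232 CPM in somata labelled KO. In somata the gene named as null was thus higher in the libraries labelled KO (log2 difference 0.71, adjusted p = 0.0153), without overlap, and the groups are called here by their labels only. Which part of the gene is missing in the mutant is not given in the sources used here, so these counts are no check of the allele. Library totals ranged over 21657575 to 29323028 counts for growth cones, 18962308 to 36059112 for WT somata and 35243688 to 51205154 for those labelled KO. Channel genes held 0.227% to 0.369% of the counts of a library. Of the 136 genes, 10 had no count in any library, 34 were too low to be tested in any comparison of groups in pairs, and 91 were tested in all 4. Exons of 35 members overlap a gene on the opposite strand and those of 2 members a gene on the same strand, and the strand setting of the counting is not given in the sources used here, so reads of such genes cannot be told apart from their neighbours'.

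Most potassium channel pore subunits share a pore signature that the sodium and calcium alpha subunits lack, and it is shown first because it divides the set. The coding sequences were searched in frame, on the coding strand, for the signature of the potassium selectivity filter, taken as a threonine codon, any codon, a glycine codon, a codon that starts with T and a further glycine codon. It occurred in 526 of 22500 mouse genes with a coding sequence (2.34%). Among the members it occurred in 23 of 30 voltage-gated potassium alpha subunits, 10 of 10 modifier alpha subunits, 14 of 15 inward rectifiers and 14 of 14 two-pore channels (11 of them with at least 2 matches). It also occurred in 1 of 4 HCN channels and in 5 of 12 members of the calcium- or sodium-activated family. Those without it in that family were Kcnn1, Kcnn2, Kcnn3 and the auxiliary Kcnmb subunits, which form no pore. The HCN match, in Hcn4, starts at base 2713 of a coding sequence of 3603 bases. A match is one of letters only and can lie outside the selectivity filter. The signature occurred in 0 of 10 sodium alpha subunits, 0 of 10 calcium alpha1 subunits and 0 of 11 auxiliary subunits of voltage-gated potassium channels. The windows below lie within 1 exon of 4 potassium channel genes called between growth cones and somata in at least 1 genotype. Capitals mark the signature, and each window runs 5′ to 3′ on the coding strand, with GRCm38 coordinates from the GENCODE M21 annotation.
Kcnc4: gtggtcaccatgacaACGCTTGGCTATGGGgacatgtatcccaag
Kcnb2: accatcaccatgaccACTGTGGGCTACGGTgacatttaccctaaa
Kcna3: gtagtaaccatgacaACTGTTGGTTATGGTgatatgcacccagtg
Kcnma1: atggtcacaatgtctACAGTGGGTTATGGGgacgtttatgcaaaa
These lie at chr3:107447784-107447828 (minus strand), chr1:15710031-15710075 (plus), chr3:107037596-107037640 (plus) and chr14:23528398-23528442 (minus), in that order. Kcnc4 was higher in growth cones in both genotypes and Kcnb2 and Kcnma1 lower, so the same signature stood on both sides, and no match in a gene says only that these letters are absent from its annotated coding sequence.

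Levels of different genes were compared only per kilobase of exon. On that scale the highest channel transcript in both compartments was Cacnb3, a beta subunit that carries calcium channels to the membrane, with a mean level of 68.5 CPM per kilobase in growth cones and 69.9 in somata. Next in somata came Scn3b (50.5 CPM per kilobase), a sodium channel beta subunit, Cacng4 (30.9), a gamma subunit that also accompanies AMPA receptors, and Scn2a (21.9), a sodium channel alpha subunit. Next in growth cones came Cacng4 (50.3 CPM per kilobase), Kcnip1 (50.1), a calcium-binding KChIP subunit of Kv4 potassium channels, and Cacng3 (40.8), a relative of Cacng4. Cacnb3 did not pass the test in any comparison. Its level was 290.2, 311, 222, 343 and 310.4 CPM in WT growth cones and 269, 207, 219, 378 and 196 CPM in KO growth cones. It was 243, 292, 255, 272 and 322 CPM in WT somata and 290.1, 286, 237, 289.5 and 316 CPM in KO somata. All 4 groups overlapped, and Cacnb3 made up between 77.1% and 82.3% of the calcium channel beta subunit transcripts per kilobase as a group mean.

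Unless a scale is named, single-library values below are CPM scaled by TMM over all 20 libraries, listed in the order of the experiment numbers (7 to 11 for growth cones of both genotypes, 12, 14, 22, 25 and 26 for WT somata, and 14, 15, 22, 25 and 26 for somata labelled KO). Fold changes are log2 values with standard errors (SE), and adjusted p-values come from edgeR's quasi-likelihood test with Benjamini-Hochberg adjustment over all genes tested, with a threshold of 0.05.

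The first comparison asked how growth cones and somata of WT neurons differ. Of the 97 members tested, 37 passed, 24 of them higher in growth cones and 13 lower. Over all 15128 genes tested, 42.8% passed, 23.1% higher and 19.7% lower, so the share of channel genes called (38.1%) was near that of genes in general. The median log2 fold change of the members tested was 0.38, beside 0.07 for all genes. Auxiliary subunits gave 12 higher and 2 lower of 26 tested, and pore-forming subunits 12 higher and 11 lower of 71. That division was made after values had been seen and is a description. In the neurons labelled KO, the second comparison, 28 of 96 members passed, 18 higher and 10 lower, beside 38.6% of 15410 genes (21.6% higher and 17% lower). The medians there were 0.16 for members and 0.11 for all genes, with 11 auxiliary subunits higher and 2 lower of 25, and 7 pore-forming subunits higher and 8 lower of 71. Growth cones and somata did not overlap for 31 of the 97 members in WT, against 37.6% of all genes, and for 26 of the 96 in KO, against 36.2%.

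Of the 93 members tested in both genotypes, 16 were higher in growth cones in both and 8 lower in both, none passed in opposite directions, 13 passed in WT only and 4 in KO only. Those 17 were not shown to differ between the genotypes, since 0 of 106 members passed the test of the interaction. Across the 93 genes the fold changes of the genotypes had a Pearson correlation of 0.81. The 2 fits share no library, but the genes share the preparation of each compartment and are not independent replicates.

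**Figure D1:**
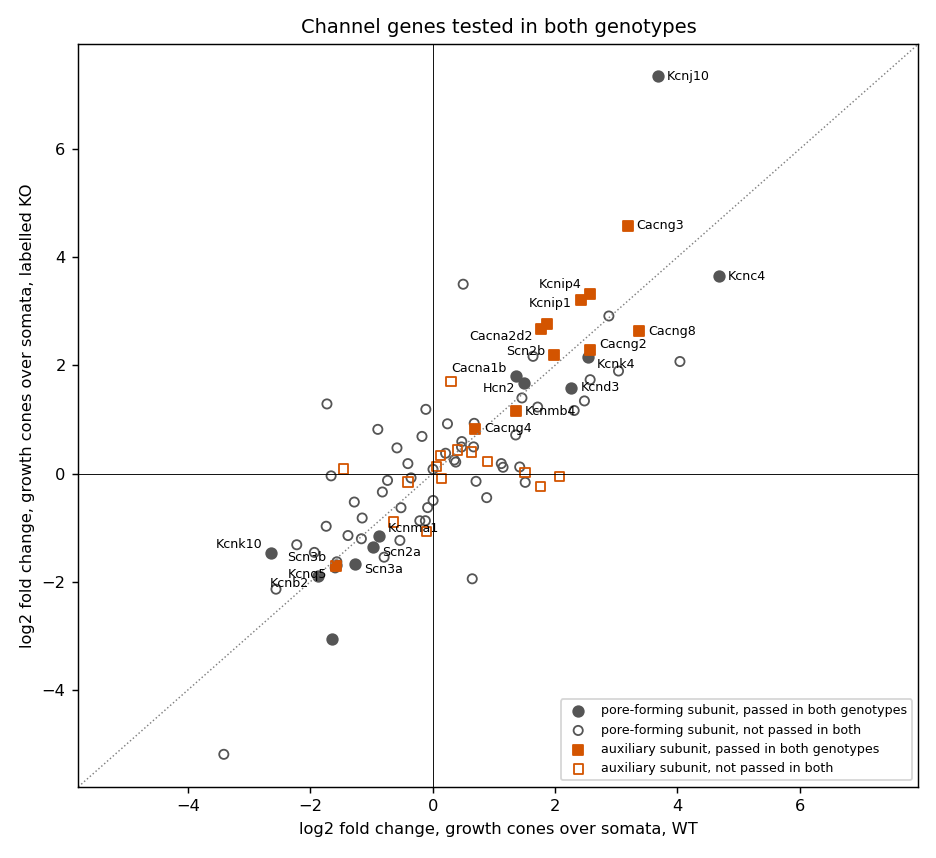
Each point is one of the 93 channel genes tested in both genotypes, with the log2 fold change of growth cones over somata in WT on the x axis and in neurons labelled KO on the y axis. Filled points passed the test in both genotypes (16 higher, 8 lower), squares are auxiliary subunits, and the dotted line marks equal change. Filling required a call in the same direction in both genotypes, so filled points can lie only to the upper right and lower left of the zero lines.

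Summed markers of other cells were also higher in growth cones, apart from those of microglia, whose ranges overlapped. Their part in the values below was not tested. In WT growth cones the summed level of the 10 astrocyte markers was 849 to 1099 CPM, against 23.4 to 188 in WT somata, and in KO it was 592 to 1185 against 97.3 to 246. The 11 oligodendrocyte lineage markers summed to 610 to 2421 CPM in WT growth cones and 589 to 1719 in KO ones, against 63.9 to 121 in somata. The 13 interneuron markers summed to 745 to 987 CPM in growth cones, 118 to 189 in WT and 386 to 535 in KO somata. The 18 hindbrain and spinal cord markers summed to 70.6 to 258 CPM in growth cones and at most 0.242 CPM in somata, where 7 of them in WT and 13 in KO had no count. In WT growth cones only Chat and Lhx4 of that list had none. Vessel and blood markers (10 genes) summed to 242 to 571 CPM in growth cones and 0.908 to 66.2 in somata, choroid and meningeal markers (9) to 364 to 575 and 2.39 to 14.3, and microglial markers (9) to 28.6 to 130 and 4.90 to 124. Taken singly, 2 of 7 vessel and blood markers tested passed as higher in WT and 2 of 8 in KO. For microglial markers it was 1 of 8 in each genotype, and none of either list passed as lower. In tissue-derived RNA, fewer cells or growth cones of a type and less RNA in each cannot be told apart.

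Sodium channels split by subunit. The alpha subunits, which form the pore, were lower in growth cones where they passed (3 of 6 tested in WT, 2 of 5 in KO, none higher). Over all genes tested, 19.7% passed as lower in WT and 17% in KO. The beta subunits, adhesion-type proteins that tune gating and surface density, went both ways. Scn2a, which encodes Nav1.2, the main sodium channel of immature axons, stood at 93.8, 153, 147, 164 and 139 CPM in WT growth cones and 94.8, 80.8, 76.99, 122 and 145 CPM in KO growth cones. It stood at 199.7, 308, 288, 321 and 292 CPM in WT somata and 317, 263, 236, 279.6 and 309 CPM in KO somata. Every growth cone library was below every soma library. The change was -0.97 ± 0.18, adjusted p = 0.00083 in WT and -1.36 ± 0.19, adjusted p = 0.000179 in KO.

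Scn3a encodes Nav1.3, a sodium channel of the embryonic and newborn brain. Its level was 54.6, 58.2, 69.4, 40.2 and 34.2 CPM in WT growth cones and 17.4, 72, 24.8, 58.7 and 27.3 CPM in KO growth cones. Somata gave 82.9, 148, 165, 92.4 and 148 CPM in WT somata and 127, 100.5, 137, 156 and 151 CPM in KO somata. Again the compartments did not overlap, with a change of -1.27 ± 0.26, adjusted p = 0.00183 in WT and -1.67 ± 0.37, adjusted p = 0.00365 in KO. Scn9a, for Nav1.7, passed in WT (-2.22 ± 0.81, adjusted p = 0.0424), a call lost without WT growth cone 7, 9, 10 or 11 or WT soma 12, 14 or 26 (adjusted p at most 0.0925, without WT soma 14) and under 6 other settings, and not in KO (-1.32 ± 1.06, adjusted p = 0.362). Scn8a, for Nav1.6, the channel of mature axon initial segments and nodes, did not pass: its values were -0.17 ± 0.52, adjusted p = 0.816 in WT and 0.69 ± 0.47, adjusted p = 0.28 in KO, with libraries from 4.63 to 59.9 CPM in growth cones and 6.82 to 58.5 CPM in somata. Scn2a made up 59.6% ± 6.52 (SD, n = 5) of the sodium alpha transcripts per kilobase in WT growth cones and 60.0% ± 5.41 in WT somata, so the summed level was lower (18.2 against 36.7 CPM per kilobase) at a like share of Scn2a.

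The beta subunits moved in opposite directions. Scn3b, high in the immature cortex, was the sodium beta transcript of the cell body. It counted 95.1, 83.8, 83.6, 52.3 and 81.2 CPM in WT growth cones and 58.1, 70.3, 123, 105 and 85.4 CPM in KO growth cones. Somata held 178, 221, 257, 239 and 332 CPM in WT somata and 274, 319.9, 313, 269 and 352 CPM in KO somata. The 2 ranges did not touch, and the change was -1.59 ± 0.20, adjusted p = 6.77e-05 in WT and -1.71 ± 0.20, adjusted p = 5.62e-05 in KO. In share of the sodium beta transcripts per kilobase, Scn3b took 36.1% ± 7.91 (SD, n = 5) in WT growth cones and 85.6% ± 4.44 in WT somata. In KO its shares were 36.0% ± 9.96 and 91.7% ± 2.14. Scn2b, a beta subunit linked to the alpha chain by a disulfide bond, was higher in growth cones (1.99 ± 0.68, adjusted p = 0.0332 in WT, 2.19 ± 0.60, adjusted p = 0.0135 in KO), at lower levels of 2.83 to 18.9 CPM in growth cones and 0.995 to 3.70 CPM in somata. Its call in WT was lost without WT growth cone 9 or 10 or WT soma 14, 22 or 26, with an adjusted p of at most 0.0767 (without WT soma 14), and with no filter on low counts (0.0601).

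**Figure D2:**
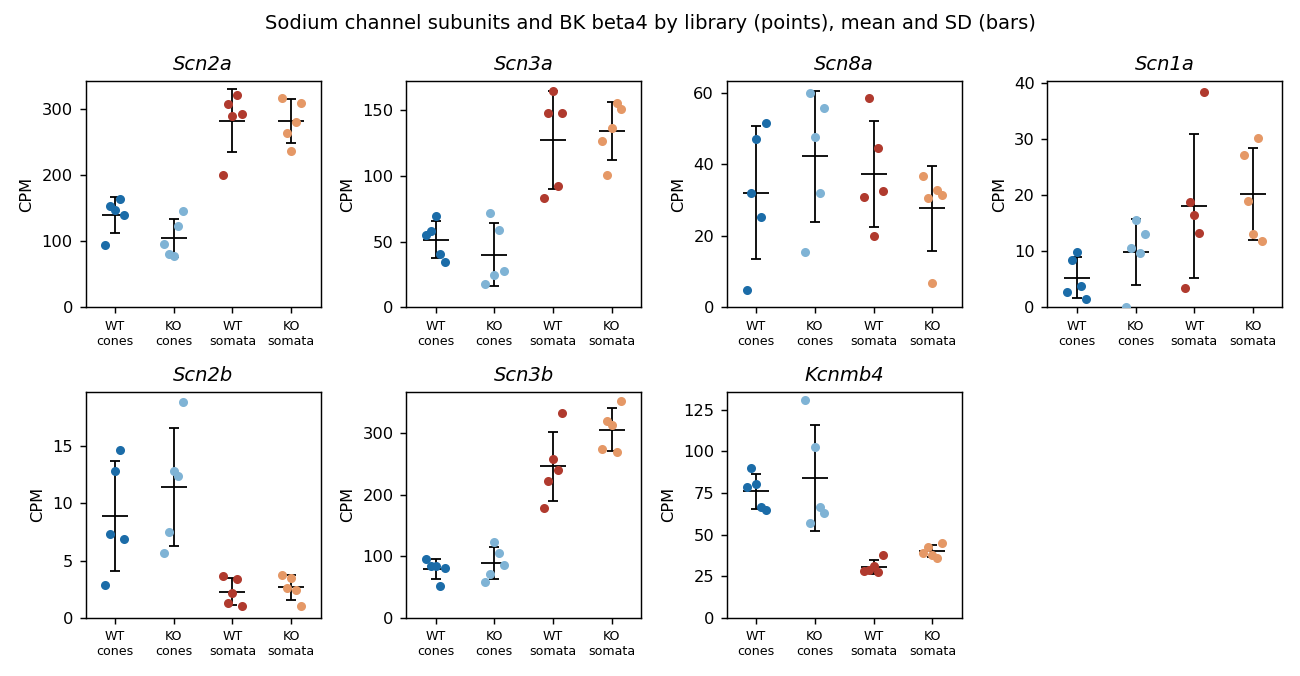
Each panel shows 1 gene, with CPM on the y axis and 1 point for each of the 5 libraries of a group, and bars give the mean and SD. Scn2a, Scn3a and Scn3b sit higher in the soma groups, Scn2b and Kcnmb4 sit higher in the growth cone groups, and Scn8a and Scn1a did not pass the test.

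Among partners of sodium channels (15 genes, all tested), 1 was higher and 3 lower in WT growth cones, and 1 higher and 4 lower in KO. Of all genes tested, 42.8% passed in WT and 38.6% in KO, so partners were not called more often than genes in general. Nrcam, an adhesion protein of initial segments and nodes, fell most, with a log2 change of -2.52 ± 0.27 (SE) in WT (adjusted p = 1.69e-05). Ank2, an ankyrin of the axon shaft, changed by -1.35 ± 0.25 in WT (adjusted p = 0.00101) and -1.41 ± 0.21 in KO (adjusted p = 0.000277). Nedd4l, a ubiquitin ligase that takes sodium channels off the membrane, changed by -0.89 ± 0.17 in WT (adjusted p = 0.00112). Fam155a, an auxiliary subunit of the sodium leak channel, was higher in WT growth cones by 2.03 ± 0.42 (adjusted p = 0.00202).

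KChIP subunits, calcium-binding proteins that attach to Kv4 potassium channels, were led by Kcnip1 in growth cones. Kcnip1 counted 496, 199.5, 246, 279 and 252 CPM in WT growth cones and 422, 248, 208, 439.9 and 369 CPM in KO growth cones. In somata it counted 62.4, 40.1, 71.5, 58.3 and 50.6 CPM in WT somata and 29.9, 48.4, 36.3, 45.3 and 32.5 CPM in KO somata. All growth cone libraries were above all soma libraries, and the change was 2.43 ± 0.26, adjusted p = 2.05e-05 in WT and 3.21 ± 0.25, adjusted p = 2.86e-06 in KO. Kcnip4 stood at 12.1, 56.5, 30.2, 33.2 and 33.3 CPM in WT growth cones and 19.4, 22.9, 17.9, 55.4 and 53.6 CPM in KO growth cones. Somata gave 7.28, 4.85, 6.64, 4.85 and 4.77 CPM in WT somata and 4.89, 6.04, 0.252, 3.58 and 3.02 CPM in KO somata. It was higher in growth cones in both genotypes (2.58 ± 0.43, adjusted p = 0.00047 and 3.32 ± 0.73, adjusted p = 0.00359), with 7.36% of its exon bases under 2 genes of the opposite strand. The other KChIP genes passed as higher in growth cones in 1 genotype each, with overlap. Kcnip3 passed in WT (1.77 ± 0.46, adjusted p = 0.00867) and not in KO (-0.24 ± 0.47, adjusted p = 0.72). Kcnip2 passed in KO (1.71 ± 0.38, adjusted p = 0.00366) and not in WT (0.30 ± 0.27, adjusted p = 0.398). Neither gene passed the test of the interaction. Of the Kv4 channels themselves, Kcnd3 was higher in growth cones (2.27 ± 0.63, adjusted p = 0.0116 in WT, 1.58 ± 0.55, adjusted p = 0.0392 in KO) and Kcnd2 did not pass (0.67 ± 0.31, adjusted p = 0.0982 and 0.49 ± 0.28, adjusted p = 0.186). The Kcnd3 call in KO was lost in 9 of 10 fits that left out 1 library, with an adjusted p of at most 0.0928 (without KO soma 22). Of those 10 fits only the one without growth cone 11, where Kcnd3 stood at 4.42 CPM against 24.2 to 29.9 in the other 4, kept it. It was also lost with no filter on low counts (adjusted p = 0.0727) and with detected genes as a covariate (0.0541). Among 18 potassium channel partners, 3 were higher and 6 lower in WT growth cones, and 2 and 4 in KO, beside 42.8% and 38.6% of all genes called. Dpp10, another Kv4 partner, was lower in WT by -1.53 ± 0.26 (adjusted p = 0.000588), Adam22, a Kv1 complex protein, by -1.998 ± 0.39 (adjusted p = 0.0014), and Akap5, a kinase anchor for Kv7 channels, was higher by 3.29 ± 0.65 (adjusted p = 0.00149).

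Pore-forming potassium channels went in both directions. Kcnc4, for Kv3.4, a fast Kv3 channel, was near 0 in cell bodies. It stood at 35.8, 44.4, 25.6, 12.5 and 25.9 CPM in WT growth cones and 8.55, 35.8, 25.96, 26.6 and 29.7 CPM in KO growth cones. Somata held 0.533, 1.73, 2.80, 0 and 0.746 CPM in WT somata and 2.92, 3.65, 1.24, 1.61 and 1.24 CPM in KO somata. No library of one compartment reached the other (4.67 ± 0.98, adjusted p = 0.00231 in WT, 3.64 ± 0.56, adjusted p = 0.000376 in KO). Kcnc2, another Kv3 gene, had at most 1 count in a WT soma library. Its mean in WT growth cones was at least 123-fold the limit that 3 counts per library set, although WT growth cone 7 held 1 count as well. The low-count filter left it untested between the WT compartments. In KO it was tested and did not pass (3.46 ± 1.92, adjusted p = 0.18). KO somata 15 and 22 held 34 and 147 counts, and KO growth cone 11 held 0.

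Kcnb2, for Kv2.2, was lower in growth cones, with 8.90, 14.9, 12.96, 12.1 and 4.61 CPM in WT growth cones and 8.14, 3.62, 16.8, 7.09 and 7.71 CPM in KO growth cones. In cell bodies it counted 28.6, 39.9, 36.1, 51.8 and 46.5 CPM in WT somata and 48.5, 29.5, 31.5, 41.8 and 19.6 CPM in KO somata. The compartments did not overlap (-1.88 ± 0.36, adjusted p = 0.0013 in WT, -1.90 ± 0.45, adjusted p = 0.00593 in KO). Kcna3, for Kv1.3, was close to absent from growth cones, with 0, 0.0365, 4.39, 5.78 and 0 CPM in WT growth cones and 0, 0.652, 0.208, 0.0641 and 2.93 CPM in KO growth cones. Somata gave 14.4, 25.6, 21.8, 27.04 and 22.7 CPM in WT somata and 24.04, 25.6, 35.8, 34.1 and 28.2 CPM in KO somata. All soma libraries were above all growth cone libraries, and the test passed in KO (-5.19 ± 1.17, adjusted p = 0.0042) but not in WT (-3.41 ± 1.43, adjusted p = 0.0727), where the 5 growth cone libraries held 0, 1, 133, 174 and 0 counts. The KO growth cone libraries held 0, 18, 6, 2 and 65 counts, so the size of the fitted KO change rests on a group near 0. The low-count filter left Kcna3 untested between the genotypes in growth cones. Kcnq5, for a Kv7 channel of the M current, was lower in both genotypes (-1.57 ± 0.55, adjusted p = 0.0362 and -1.69 ± 0.53, adjusted p = 0.0247). Its WT call was lost without WT growth cone 7, 8 or 11 or WT soma 12, 22, 25 or 26 and under 5 other settings (adjusted p at most 0.104), and its KO call without KO growth cone 9 or KO soma 26. Silent modifier subunits, which work only together with Kv2 channels, gave 2 lower of 6 tested in WT and none called of 7 in KO. The shares of all genes called lower were 19.7% in WT and 17% in KO. Kcng1 changed by -2.56 ± 0.36, adjusted p = 0.000148 and Kcnv1 by -1.93 ± 0.46, adjusted p = 0.00497 in WT, and their values in KO were -2.14 ± 0.80, adjusted p = 0.0547 and -1.46 ± 0.75, adjusted p = 0.148.

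The large-conductance BK channel, opened by calcium and voltage together, differed between its pore and its neuronal beta subunit. Kcnma1, the pore, was lower in growth cones, with 23.4, 39.4, 37.2, 33.1 and 60.2 CPM in WT growth cones and 42.8, 47.9, 41.2, 30.4 and 30.5 CPM in KO growth cones. Cell bodies gave 61.3, 70.5, 79.3, 68.4 and 88.2 CPM in WT somata and 96.2, 94.2, 88.3, 91.5 and 83.95 CPM in KO somata. The change was -0.88 ± 0.25, adjusted p = 0.0143 in WT and -1.16 ± 0.19, adjusted p = 0.000554 in KO. In WT the ranges came within a few CPM of each other on this scale and overlapped when scaled within the comparison. Kcnmb4, the beta4 subunit that slows the channel, was higher in growth cones, with 78.3, 90.1, 80.4, 66.6 and 64.8 CPM in WT growth cones and 131, 57.1, 103, 66.3 and 63.1 CPM in KO growth cones. In somata it stood at 28.2, 28.4, 30.9, 27.5 and 37.4 CPM in WT somata and 38.8, 42.3, 37.8, 36.1 and 45.1 CPM in KO somata. The compartments did not overlap (1.36 ± 0.19, adjusted p = 0.000154 in WT, 1.15 ± 0.25, adjusted p = 0.00376 in KO), and 31.5% of its exon bases lie under 2 antisense genes.

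Channels of the two-pore family carry the resting potassium leak. Kcnk10, for the stretch-sensitive TREK-2, was a soma transcript, with 19.04, 20.9, 11.6, 22.7 and 9.28 CPM in WT growth cones and 47.2, 52.9, 19.9, 13.4 and 30.9 CPM in KO growth cones. Its soma levels were 87.9, 123, 114, 112 and 99.5 CPM in WT somata and 128, 77.4, 83.8, 95.3 and 97 CPM in KO somata. All growth cone libraries lay below all soma libraries (-2.64 ± 0.28, adjusted p = 1.58e-05 in WT, -1.47 ± 0.36, adjusted p = 0.00676 in KO). Its relative Kcnk4, for TRAAK, was higher in growth cones (2.54 ± 0.38, adjusted p = 0.000197 in WT, 2.15 ± 0.60, adjusted p = 0.0135 in KO), with 5.86 to 54.3 CPM there and 1.52 to 8.81 CPM in somata, and 13.2% of its exon bases overlap Catsperz on the same strand. Kcnk1, for TWIK-1, passed in WT (1.36 ± 0.26, adjusted p = 0.0013) and not in KO (0.71 ± 0.32, adjusted p = 0.0961). Kcnk9, for TASK-3, passed in KO (1.90 ± 0.53, adjusted p = 0.0147), a call lost in 1 fit of all 20 libraries (adjusted p = 0.151), and not in WT (3.04 ± 1.25, adjusted p = 0.0688).

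Among inward rectifiers Kcnj10, for Kir4.1, best known from astrocytes, was higher in growth cones, with 33.95, 44.4, 14.4, 1.99 and 8.92 CPM in WT growth cones and 5.56, 7.64, 2.29, 6.13 and 4.24 CPM in KO growth cones. Somata held 0.0314, 5.36, 0.488, 2.25 and 0.230 CPM in WT somata and 0, 0.0967, 0.0210, 0 and 0.0311 CPM in KO somata. The KO somata had 0, 4, 1, 0 and 1 counts, so the fitted change there (7.34 ± 1.17, adjusted p = 0.000467) rests on a group near 0, and the WT change was 3.68 ± 1.20, adjusted p = 0.0264 with WT somata 14 and 25 inside the growth cone range. That WT call was lost without WT growth cone 7 or 8 or WT soma 22 or 26, with an adjusted p of at most 0.0618. The astrocyte marker sums given above were higher in growth cones as well, and their part in Kcnj10 was not tested. Kcnj16, which pairs with Kcnj10, reached 33.6 CPM in KO growth cone 11 and at most 6.21 CPM in any other library.

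HCN channels, which carry an inward current on hyperpolarisation, help to set the resting potential and rhythmic firing. Hcn2 was at 21.4, 24.97, 19.8, 18.4 and 45.9 CPM in WT growth cones and 24.1, 29.2, 18.1, 28.4 and 26.2 CPM in KO growth cones. The soma values were 11.9, 8.30, 7.52, 8.95 and 11.1 CPM in WT somata and 12.2, 6.53, 7.005, 9.56 and 6.59 CPM in KO somata. It was higher in growth cones without overlap (1.497 ± 0.38, adjusted p = 0.00719 and 1.67 ± 0.36, adjusted p = 0.00328). Hcn3 did not pass (-0.21 ± 0.29, adjusted p = 0.6 and -0.87 ± 0.37, adjusted p = 0.0824) and was the largest part of the HCN transcripts per kilobase in WT somata (56.5% ± 6.74, SD, n = 5), with 17.1% of its exon bases under Pklr on the other strand. Hcn2 took 14.4% ± 4.36 of that sum in WT somata and 36.1% ± 8.29 in WT growth cones. Pex5l, whose product TRIP8b carries HCN channels into dendrites, was lower in growth cones in both genotypes, by -2.10 ± 0.38 (adjusted p = 0.000876) in WT and -2.72 ± 0.81 (adjusted p = 0.0197) in KO.

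Calcium channel calls included the gamma subunits, named for the muscle calcium channel and in brain mostly companions of AMPA-type glutamate receptors. In WT 4 of 7 tested passed and in KO 4 of 6, all higher in growth cones, beside 23.1% and 21.6% of all genes called higher. Cacng3 counted 158, 57.1, 92.4, 85.6 and 84.95 CPM in WT growth cones and 111, 96.3, 88.6, 201 and 160.0 CPM in KO growth cones. Somata gave 7.47, 7.08, 10.3, 13.3 and 16.2 CPM in WT somata and 5.83, 6.65, 3.43, 9.16 and 3.79 CPM in KO somata. The lowest growth cone library stood well above the highest soma library (3.19 ± 0.35, adjusted p = 2.08e-05 in WT, 4.58 ± 0.37, adjusted p = 3.55e-06 in KO). Cacng2, for stargazin, was higher by 2.57 ± 0.41, adjusted p = 0.00035 in WT and 2.28 ± 0.68, adjusted p = 0.0195 in KO, the second lost without KO soma 22 (adjusted p = 0.0508). Cacng4, the highest of them per kilobase, changed less, by 0.70 ± 0.21, adjusted p = 0.0159 in WT, with overlap, and 0.83 ± 0.18, adjusted p = 0.00387 in KO, without. Its share of the AMPA-receptor gamma subunit transcripts per kilobase was 81.0% ± 5.17 (SD, n = 5) in WT somata and 48.1% ± 11.6 in WT growth cones, while Cacng3 took 10.8% ± 4.37 and 35.4% ± 12.2. Cacng8, at most 10.1 CPM in any library, was higher in both genotypes (3.38 ± 0.83, adjusted p = 0.00595 and 2.63 ± 0.77, adjusted p = 0.0179), the KO call being lost without KO soma 22 or 26 and with no filter on low counts (adjusted p at most 0.0572).

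Of the alpha1 pores, Cacna1b, for the N-type channel of axon terminals, stood at 21.3, 23.3, 23.7, 25.2 and 49.99 CPM in WT growth cones and 18.7, 34.1, 41.2, 36.98 and 39.8 CPM in KO growth cones. Somata had 12.8, 10.2, 10.6, 16.1 and 7.98 CPM in WT somata and 12.6, 15.9, 5.13, 8.66 and 9.05 CPM in KO somata. It was higher in growth cones without overlap (1.36 ± 0.37, adjusted p = 0.011 in WT, 1.81 ± 0.39, adjusted p = 0.00328 in KO). Cacna1a, for the P/Q-type channel, and Cacna1g, for a T-type channel, passed in WT (1.72 ± 0.36, adjusted p = 0.0024 and 2.88 ± 0.53, adjusted p = 0.000933), and their KO values were 1.23 ± 0.58, adjusted p = 0.119 and 2.91 ± 1.07, adjusted p = 0.0501. Of the 8 alpha1 genes tested, 4 passed in WT and 1 in KO, all higher in growth cones, and none passed as lower. Over all genes tested, 23.1% passed as higher in WT and 21.6% in KO. Cacna1d and Cacna1e had lower fitted values in growth cones without passing: Cacna1d at -1.28 ± 0.72, adjusted p = 0.171 in WT and -0.53 ± 1.03, adjusted p = 0.722 in KO, and Cacna1e at -0.52 ± 0.52, adjusted p = 0.453 and -0.63 ± 0.63, adjusted p = 0.462. Cacna2d2, an alpha2delta subunit that brings channels to the surface, was higher in growth cones (1.78 ± 0.54, adjusted p = 0.0192 in WT, 2.66 ± 0.57, adjusted p = 0.00319 in KO), the WT call being lost without WT growth cone 8 or WT soma 22 (adjusted p at most 0.0509). Cacna2d3 was lower in WT growth cones (-1.45 ± 0.37, adjusted p = 0.00774) and not called in KO (0.08 ± 0.41, adjusted p = 0.892). Of calcium channel partners, 4 were higher and 1 lower of 11 in WT, and 3 and 0 of 10 in KO, beside 42.8% and 38.6% of all genes called. Gnb1, a G protein beta subunit that inhibits N-type channels, was higher by 1.37 ± 0.13 in WT (adjusted p = 1.02e-05). Rims1, an active zone scaffold, was higher by 0.91 ± 0.33 in WT (adjusted p = 0.0414).

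Of 15 transporters that keep the ion gradients, 5 passed as higher and 5 as lower in growth cones in each genotype. Over all genes tested, 23.1% passed as higher and 19.7% as lower in WT, and 21.6% and 17% in KO. Slc12a5, the chloride exporter KCC2, was higher in growth cones by 1.77 ± 0.30 in WT (adjusted p = 0.000558), and the part of the other cell types whose markers are given above was not tested.

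Gene length moved with these calls. The median exon length was 5152 bases for pore-forming members, 3675 for auxiliary members and 3499 for protein-coding genes in general. When the fit carried an offset for the trend of fold change with length, the WT counts became 28 higher and 9 lower (75.7% higher, against 64.9%), and the KO counts 25 and 7 (78.1% against 64.3%). Auxiliary subunits then gave 13 higher and 1 lower in WT, and pore-forming subunits 15 and 8. In KO they gave 11 and 1, and 14 and 6. With that offset Kcnma1, Cacna2d3, Kcnq5 and Scn9a no longer passed in WT, nor did Kcnk10, Kcnq5 and Cacna2d1 in KO.

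**Figure D3:**
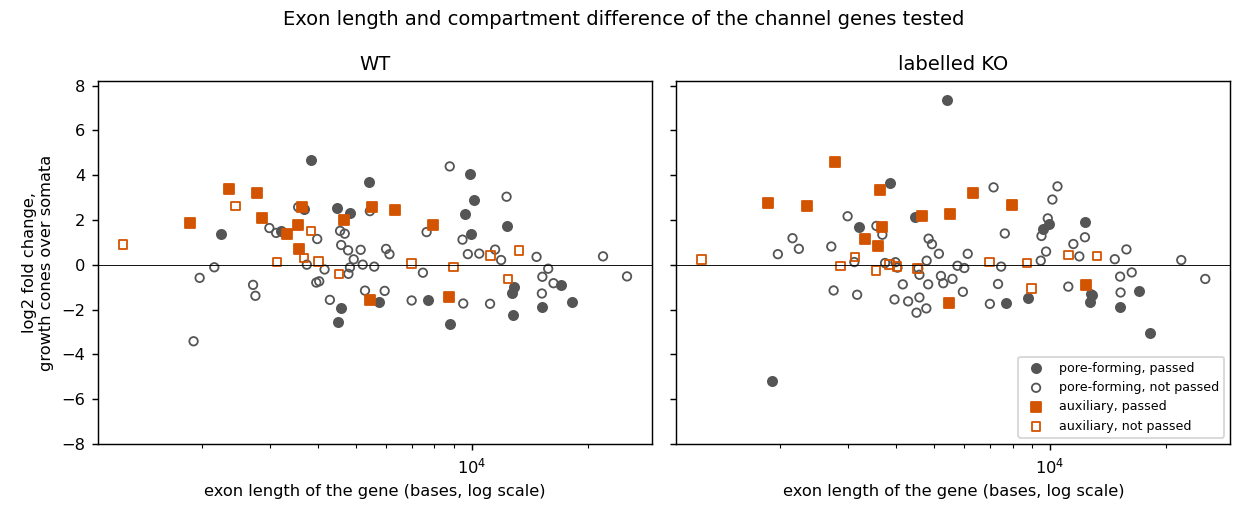
The x axis gives each member's exon length in bases on a log scale and the y axis its log2 fold change of growth cones over somata, in WT (left, 97 members) and in neurons labelled KO (right, 96 members). Filled points passed the test and squares are auxiliary subunits, which have the shorter median length. Kcna3, with 1902 bases, is the shortest member called lower in growth cones, in KO.

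The third comparison asked what the Bcl11b genotype label goes with in somata. Of 95 members tested, 3 passed (3.16%), beside 0.731% of all 14911 genes tested. Of these, 1 was higher in somata labelled KO (0.416% of all genes) and 2 were lower (0.315%), all of them auxiliary subunits. The median log2 difference was 0.03 for the members and -0.0030 for all genes. An unadjusted p under 0.05 was found for 18 of 95 members and for 8.57% of all genes.

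Kcnip3, also known as DREAM or calsenilin, is a KChIP that doubles as a calcium-dependent transcriptional repressor. It counted 9.48, 17.1, 9.01, 29.7 and 15.2 CPM in WT somata and 55.7, 80.3, 40.01, 72.2 and 46.7 CPM in KO somata. All 5 KO libraries were above all WT libraries (1.87 ± 0.33, adjusted p = 0.0264). Kcnip2, the KChIP of cortical and cardiac Kv4 channels, went the other way, with 71.2, 49.3, 70.05, 47.4 and 37.4 CPM in WT somata and 19.1, 33.2, 21.9, 17.9 and 12.7 CPM in KO somata. The groups did not overlap (-1.40 ± 0.27, adjusted p = 0.0378). Cacna2d3, an alpha2delta subunit of calcium channels with roles in synapse formation, counted 71.5, 96.2, 102, 135 and 167 CPM in WT somata and 48.2, 51.3, 55.5, 36.4 and 43.3 CPM in KO somata. Every KO library was below every WT library, at -1.29 ± 0.21, adjusted p = 0.0146.

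As shares of the KChIP transcripts per kilobase, Kcnip2 was 49.4% ± 7.36 (SD, n = 5) of the sum in WT somata and 19.4% ± 4.71 in KO somata, and Kcnip3 was 15.6% ± 8.04 and 56.3% ± 4.62. The sum itself was 30.1 ± 4.91 and 29.4 ± 7.79 CPM per kilobase, so the KChIP total differed by less than its spread while its leading gene differed. Kcnip1 took 29.8% ± 3.62 and 21.1% ± 3.01, with a log2 difference of -0.56 ± 0.19, adjusted p = 0.337, and Kcnip4 5.21% ± 0.637 and 3.20% ± 1.78. In growth cones Kcnip1 led in both genotypes, with 52.1% ± 14.8 in WT and 58.3% ± 9.56 in KO, of sums of 88.7 ± 14.1 and 93.8 ± 32.6 CPM per kilobase.

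**Figure D4:**
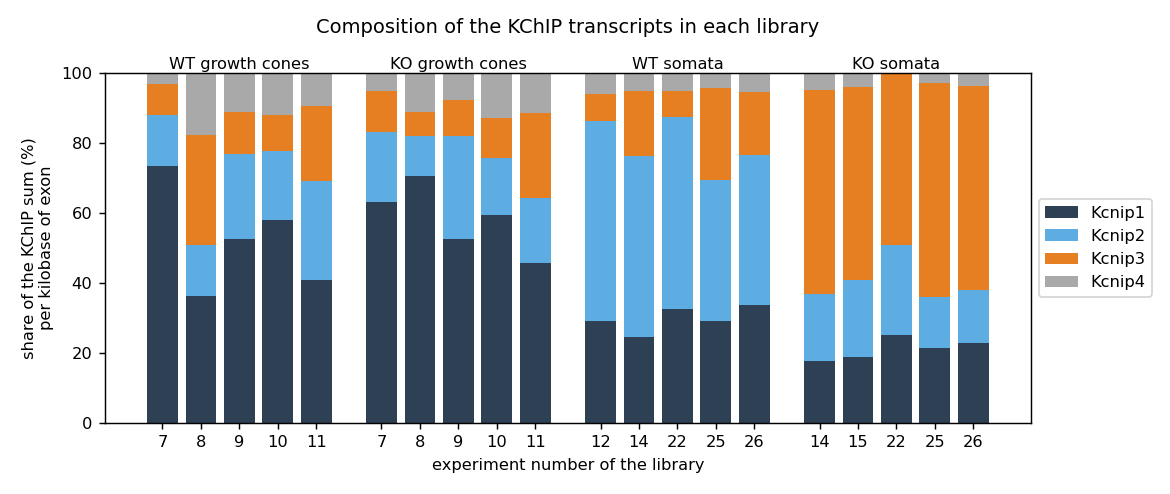
Each bar is 1 library, labelled by its experiment number, and the colours give the percent of the summed KChIP level per kilobase of exon that each of the 4 genes holds. Kcnip2 is the largest part in the 5 WT soma libraries and Kcnip3 in the 5 soma libraries labelled KO, while Kcnip1 is the largest part in the 10 growth cone libraries.

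The 3 calls depended on the fit. All were lost when the 20 libraries shared 1 fit, with adjusted p = 0.268 for Kcnip3, 0.147 for Kcnip2 and 0.509 for Cacna2d3, and when the number of detected genes entered as a covariate, an alternative added after seeing the data (0.114, 0.0811 and 0.0853). Kcnip3 was lost without WT soma 12, 14, 22 or 26 or KO soma 14, 15 or 25, and Kcnip2 without WT soma 12, 14, 22 or 25 or KO soma 14, 22, 25 or 26. Kcnip2 was also lost with no filter on low counts (adjusted p = 0.0564). Cacna2d3 was kept in all 10 fits that left out 1 library and lost with the replicate number as a block (adjusted p = 0.0918). WT soma 12 and KO soma 15 have no same-numbered partner, so with the block they add nothing to the genotype difference. That fit therefore rests on fewer libraries. The 3 directions held in every fit. With 1 library left out, the Kcnip3 adjusted p was at most 0.0824, without WT soma 26, and that of Kcnip2 at most 0.114, without KO soma 25. Depth moved with the label, as the totals above show, and so did marker sums: the 13 interneuron markers summed to 118 to 189 CPM in WT and 386 to 535 CPM in KO somata, and to 20.6 to 65.4 and 12.002 to 55.3 CPM without Npy. The 11 subcerebral markers summed to 2207 to 2445 and 2731 to 2981 CPM. Bcl11b is 1 of them, with TMM-scaled means of 701 CPM in WT and 1152 CPM in KO somata. Of the 11 markers, 4 passed as higher and 2 as lower in KO somata. The part of depth or of any of these markers in the 3 calls was not tested.

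Kcns1 and, higher in KO, Kcnc1 and Kcnk3, all 3 named after their values were seen, and Kcnt1 also had no overlap between the soma groups but did not pass edgeR's test. Kcns1, a modifier subunit, had values of 13.4, 17.1, 26.3, 19.5 and 11.4 CPM in WT somata and 10.2, 7.83, 7.42, 3.97 and 5.97 CPM in KO somata, a difference of -1.31 ± 0.32, adjusted p = 0.129. Kcnt1, a sodium-activated potassium channel, had 10.5, 19.1, 7.94, 15.7 and 8.33 CPM in WT somata and 5.44, 4.62, 4.14, 5.83 and 4.29 CPM in KO somata, a difference of -1.34 ± 0.33, adjusted p = 0.13. Kcnc1, for a Kv3 channel, differed by 0.95 ± 0.35, adjusted p = 0.41 and Kcnk3, for TASK-1, by 0.96 ± 0.36, adjusted p = 0.426. DESeq2 called Kcns1 and Kcnt1 (adjusted p = 0.00621 and 0.0043) beside the 3 above. In all, 7 of 95 members had no overlap between the soma groups, against 3.13% of all genes tested. Of the pore-forming members, 0 of 70 passed in somata. Among the partner lists and transporters, 1 gene passed in somata: Fgf13, a cytoplasmic partner of sodium channels, lower in KO by -0.68 ± 0.09 (adjusted p = 0.00475), with means of 396 CPM in WT and 247 CPM in KO scaled within the comparison. The sodium alpha subunits did not pass, with Scn2a at -0.01 ± 0.13, adjusted p = 1 and Scn3a at 0.07 ± 0.20, adjusted p = 0.99.

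**Figure D5:**
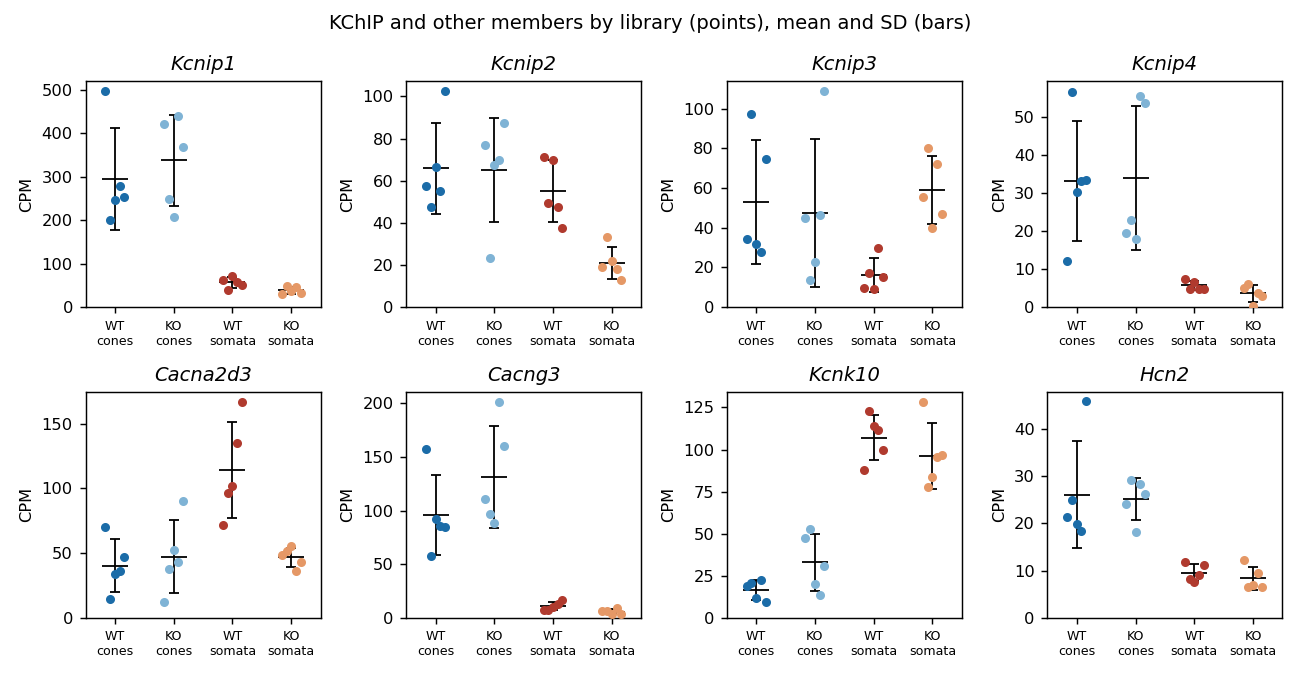
Each panel shows 1 gene, with CPM on the y axis and 1 point for each of the 5 libraries of a group, and bars give the mean and SD. Kcnip2 and Cacna2d3 are lower and Kcnip3 higher in somata labelled KO than in WT somata, Kcnip1, Kcnip4, Cacng3 and Hcn2 are higher in growth cones than in somata, and Kcnk10 is lower in growth cones.

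The fourth comparison asked the same in growth cones, where 0 of 98 members and 0 of 15419 genes passed edgeR's test (0% of all genes). An unadjusted p under 0.05 was found for 2 members, against 2.13% of all genes, and DESeq2 called 11 genes, none of them a member. Those 2 members were Kcnq3, for a Kv7 channel, at -1.16 ± 0.46, adjusted p = 0.999, and Kcnj10, at -1.95 ± 0.78, adjusted p = 0.999. Kcnq3 counted 27.3, 37.2, 43.2, 50.5 and 18.8 CPM in WT growth cones and 5.86, 17.4, 19.6, 23.2 and 11.9 CPM in KO growth cones. The 2 groups overlapped, and its soma difference did not pass either (-1.05 ± 0.33, adjusted p = 0.278). The genes called in somata had values of -0.14 ± 0.54, adjusted p = 0.999 for Kcnip3, -0.02 ± 0.34, adjusted p = 0.999 for Kcnip2 and 0.23 ± 0.51, adjusted p = 0.999 for Cacna2d3 in growth cones. Kcnip3 stood there at 34.1, 97.3, 31.8, 27.6 and 74.7 CPM in WT growth cones and 44.8, 13.5, 22.6, 46.6 and 109 CPM in KO growth cones. Kcnip2 gave 57.5, 47.3, 66.5, 55.1 and 103 CPM in WT growth cones and 77.2, 23.1, 67.4, 69.9 and 87.2 CPM in KO growth cones, and Cacna2d3 70.03, 14.4, 33.9, 36.1 and 47.2 CPM in WT growth cones and 12.3, 37.8, 52.4, 43.2 and 90.2 CPM in KO growth cones. For each of these genes the genotypes overlapped in growth cones, as they did for all 98 members tested, where 0.48% of all genes had no overlap.

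The last comparison was the interaction, which asks whether the genotype difference itself differs between growth cones and somata. Of 106 members tested, 0 passed edgeR's test, beside 0.0397% of 17645 genes, and 8 members had an unadjusted p under 0.05, against 6.98% of all genes. The lowest p among members were those of Kcnip2 (1.37 ± 0.46, adjusted p = 0.448), Kcnip3 (-2.04 ± 0.69, adjusted p = 0.452) and Cacng3 (1.37 ± 0.47, adjusted p = 0.452). The soma differences of Kcnip2 and Kcnip3 were thus not shown to be particular to the cell body. DESeq2 called 1 member here, Kcnj5, an inward rectifier named after its values were seen (adjusted p = 0.00703), where edgeR gave 5.51 ± 3.02, adjusted p = 0.821. Kcnj5 had counts in 3 WT growth cone, 1 KO growth cone and 2 WT soma libraries and in none of the 5 KO soma libraries.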

How the data were processed

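RNA of 20 libraries was counted per gene. The values are raw counts deposited by the authors in 1 table. Per the submitters' processing notes, Trimmomatic 0.39, STAR 2.7.1a and featureCounts 1.5.0 were used, and the notes name GRCm39, while the table's coordinates are those of GRCm38: 98.1% of its genes have the exons of GENCODE M21, which gave symbols and sequences. Treatment of multi-mapped reads and strand are not given in the sources used here. Every count column matched a sample (0 unmatched, 0 entries naming no gene).

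Groups came from sample titles. edgeR 4.0.16 (R 4.3.3) was run on all genes: filterByExpr (minimum count 10), TMM scaling, quasi-likelihood F test, Benjamini-Hochberg adjustment at 0.05, with the 2 groups of a comparison in each fit and all 20 libraries for the interaction. The F statistics gave the standard errors. Levels are given as CPM with TMM over all 20 libraries, divided by exon length where genes are compared, and marker sums are CPM of the library total. Fold limits use a floor of 3 counts per library, which covers counting error only. The members and lists were chosen with earlier results of these data known. Genes were named by rule: up to 12 members per direction with the lowest p among those passing, at 5 CPM or more and without overlap, a list of main members whatever their values, the 10 highest per kilobase in each compartment, and up to 4 genes per direction of each partner list. No replicate pair agreed within counting noise (smallest chi-square per degree of freedom 52.7), so none was merged. The scripts were tested on simulated data. Some items that the rules would name are not reported here. Alternatives covered scaling, filter, DESeq2 1.42.0, limma-voom (limma 3.58.1), 1 fit of all libraries, length offsets, the replicate number as a block, detected genes as a covariate, and leaving out each library.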

Additional observations from a re-analysis of the deposited data

Results flagged for a closer look

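Of 108 groups of 5 libraries examined (27 members in 4 groups), 8 held a library that stood apart from the other 4 by Dixon's criterion (0.71 for 5 values), where chance gives about 1 in 20 groups. In WT growth cones, library 11 was the highest for Cacna1b, at 49.99 CPM against 21.3 to 25.2 in the others, and for Hcn2, at 45.87 CPM against 18.4 to 24.97. Library 8 was the highest for Cacna2d2, at 28.66 CPM against 8.64 to 14.1, and for Cacng2, at 106.1 CPM against 37.5 to 54.8. Library 7 was the highest for Kcnip1, at 496.4 CPM against 199.5 to 279.1. In growth cones labelled KO, library 7 was the highest for Cacng4, at 295.5 CPM against 154.2 to 176.2, and library 11 the lowest for Kcnd3, at 4.416 CPM against 24.2 to 29.9. In WT somata, library 12 was the lowest for Scn2a, at 199.7 CPM against 288.5 to 320.7.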

How the results depend on the processing

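No call among the channel genes reversed under any alternative. In somata, 3 channel genes passed between genotypes, 5 with DESeq2, 0 in 1 fit of all 20 libraries, 0 with detected genes as a covariate (added after seeing the data), and 1 to 2 when 1 library was left out. The interaction gave 0, and 1 with DESeq2. In growth cones the genotypes gave 0 throughout. Between compartments, 27 of 37 WT calls and 21 of 28 KO calls held under every alternative, and 31 and 23 when any 1 library was left out, against 0 of the 3 soma calls under every alternative. Upper-quartile scaling moved the all-gene median (log2 fold change) from 0.07 to 0.28 in WT and from 0.11 to 0.31 in KO, and the channel calls to 26 higher and 11 lower, and 21 and 9. limma-voom went the other way, with all-gene medians of -0.17 and -0.19 and channel calls of 27 higher and 18 lower in WT (60.0% higher) and 22 and 18 in KO (55.0%). With the replicate number as a block, 2 of the 3 soma calls held, Cacna2d3 was lost (adjusted p = 0.0918), and 34 of all genes passed, beside 109 without it. In that soma fit WT soma 12 and KO soma 15, which have no same-numbered partner, add nothing to the genotype difference. The block left 0 calls in growth cones and 0 in the interaction. The deviations of same-numbered libraries had correlations of 0.0185 to 0.122 in growth cones and 0.0474 to 0.177 in somata. Not all were over 0.1, and the main genotype tests did not take the numbers as pairs. Yet each of the 9 WT libraries with a same-numbered KO library correlated best with that one among the KO libraries of its compartment. The sample titles give these numbers, so the main genotype tests may leave out a pairing. Only the fits with the number as a block model it. Between compartments no paired analysis was possible, because growth cones and somata share no replicate numbers. The causes of these changes were not tested. Low counts limit 34 members, which were tested in no comparison of 2 groups.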
